A study of Bos taurus with 24 samples.

Results

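The transcripts described here are those of the proteasome. They were taken from the table of single-oocyte RNA levels as every row whose gene symbol begins with PSMA, PSMB, PSMC, PSMD, PSME or PSMF followed by a digit, which gave 42 of 17071 rows. By their known roles, 6 encode alpha-ring subunits, 7 constitutive beta-ring subunits, 2 immunosubunits, 6 ATPases, 11 non-ATPase subunits, 3 assembly chaperones that carry a PSMD symbol, and 5 activators or inhibitors. The remaining ones are PSMA8, an alternative subunit of the alpha ring, and PSMC3IP, which the symbol rule took in although its product is a partner of meiotic recombinases (HOP2 in yeast) and no proteasome subunit. PSMA1, PSMB10 and PSMB11 matched no row by symbol and were not analysed here.

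The proteasome is the cell's main machine for degrading proteins tagged with ubiquitin. Its 20S core is a barrel of stacked rings, in which the outer alpha rings gate the entrance and the inner beta rings carry the proteolytic sites. The 19S cap docks on the alpha ring, with a base whose ATPases unfold the substrate and a lid that removes ubiquitin. In each assembled particle the subunits of a ring or of the ATPase base are present in equal numbers. In maturing oocytes, the proteasome degrades cyclin B and securin at the transition from metaphase to anaphase of the first division.

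RNA was measured in 24 single bovine oocytes at metaphase II (MII), 12 siRNA injected and 12 non-injected. The siRNA injected oocytes had received a non-specific (scrambled) siRNA together with dextran-TRITC, a fluorescent tracer, at the germinal vesicle stage. The non-injected oocytes had received neither, so siRNA, tracer and the puncture itself cannot be told apart. Both groups came from slaughterhouse ovaries, were stripped of cumulus cells, spent 16 h in roscovitine, an inhibitor of cyclin-dependent kinases, and then 22 h in maturation medium, and only oocytes that had extruded a first polar body were taken, so that every level below is that of an oocyte that had reached MII after this extended culture. The labels do not give the animal that an oocyte came from, so p-values rest on the spread from oocyte to oocyte, of whatever origin.

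Libraries were made by CEL-seq2, which primes at the poly(A) tail, tags each molecule with a unique molecular identifier (UMI) and counts 1 tag per molecule near the 3′ end. The values are RPM (reads scaled to a fixed total per oocyte), and so a share of all tags. As a transcript gives 1 tag whatever its length, RPM of different genes can be set side by side without dividing by length, but each level rests on the annotated 3′ end and on priming at the tail. Fewer molecules of a transcript and shorter tails therefore cannot be told apart. The depth recovered from the values was 204285 to 382077 UMIs in siRNA injected and 134080 to 415554 UMIs in non-injected oocytes, and 1 UMI was worth 2.27 to 7.35 RPM. siRNA injected oocytes 3 and 8 stood apart with the highest scaling factors by TMM, a correction for shifts in RNA composition, 1.14 and 1.19, and results that depend on them are also given without them. Of the 11 oocyte markers, 9 had a row, with a median of 518 RPM and sums of 7645 to 9486 RPM in siRNA injected and 7749 to 10146 RPM in non-injected oocytes. Of the 12 cumulus and granulosa markers 10 had a row, with sums of 153 to 253 RPM and 148 to 229 RPM in the same order. Of the 8 leukocyte markers 6 had a row, with sums of 3.41 to 23.8 RPM and 0 to 44.1 RPM. PTPRC and TYROBP were at 0 in every oocyte. CD3E and LCP1 were detected in 19 and 15 of 24 oocytes, at means of 7.99 and 4.44 RPM, and CD68 and CD74 in 2 and 1.

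Together the 42 transcripts took 0.748% ± 0.096 (SD, n = 24) of all RPM, and they were far from equal. PSMA7, PSMD1, PSMA5, PSMD11 and PSMD3 made up 68.5% ± 5.28 (SD, n = 24) of this sum, with a lowest share of 53.3% and a highest of 76.6% in any oocyte, and the other 37 made up the rest. On average PSMA7 was the 59th and PSMD1 the 68th most abundant of all 17071 rows, whereas PSMD13 and PSMA2, which encode subunits of every standard 26S particle, had 6 and 13 UMIs in the 24 oocytes together. Of the 42, 34 passed a filter at a mean of 10 RPM, and PSMA2, PSMA8, PSMB8, PSMB9, PSMD8, PSMD13, PSME3 and PSMF1 did not.

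**Figure D1:**
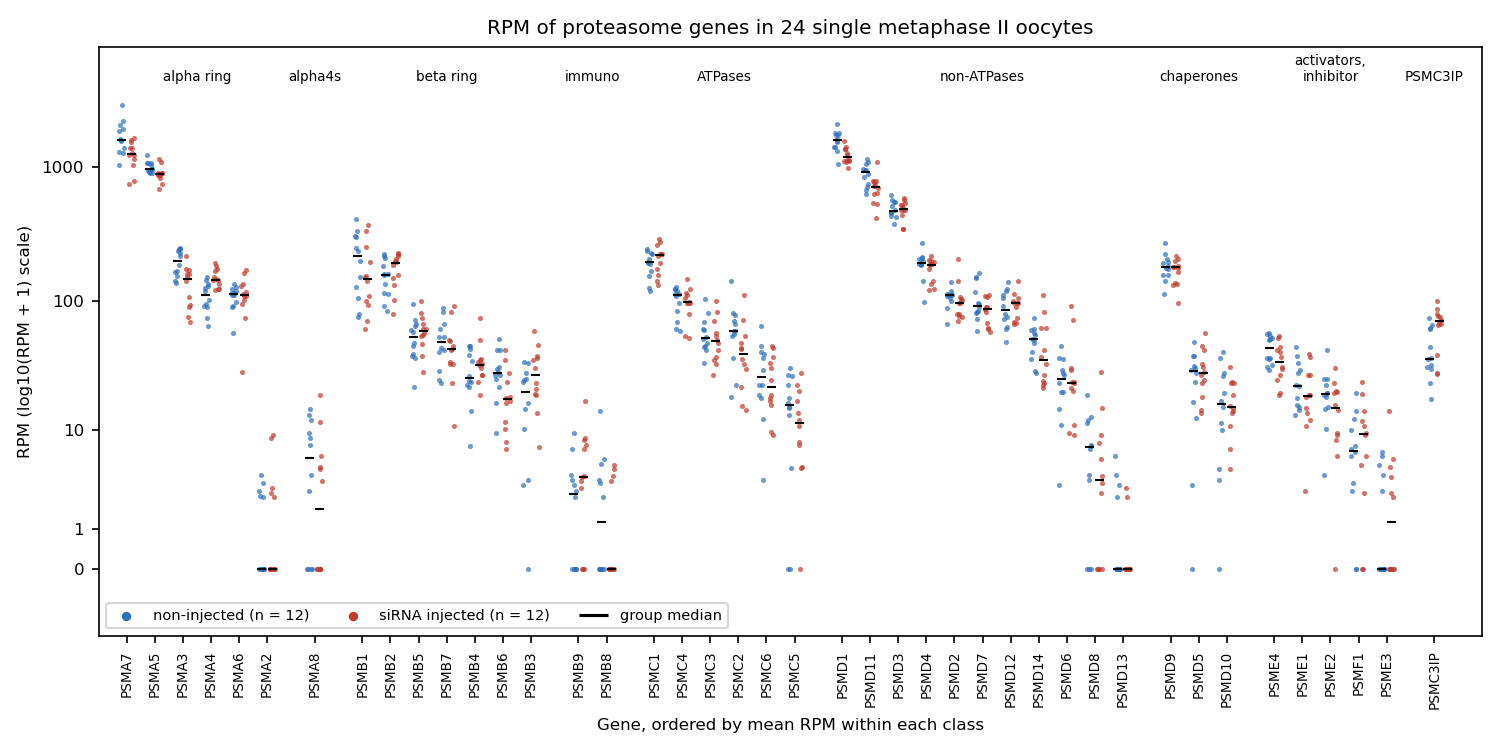
RPM of each of the 42 genes (vertical axis, log10(RPM + 1) scale) in each oocyte, by class and in order of mean RPM within the class. Points are single oocytes, blue for non-injected and red for siRNA injected (n = 12 each), and black lines are group medians. Within the alpha ring and among the non-ATPases the levels run from the top of the scale down to 0, while the beta ring and the ATPases cover a narrower range.

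In the alpha ring, which forms the gate of the core and the docking surface of the cap, levels formed 3 steps, PSMA7 and PSMA5 at the top, PSMA3, PSMA4 and PSMA6 below, and PSMA2 near the limit of detection. PSMA7 (ENSBTAG00000005127), the alpha4 subunit, ranged from 754 to 1668 RPM with a median of 1266 RPM in siRNA injected and from 1040.0 to 2937 RPM with a median of 1609 RPM in non-injected oocytes. PSMA5 (ENSBTAG00000020641), the alpha5 subunit, ranged from 691 to 1163 RPM with a median of 893 RPM and from 902 to 1244 RPM with a median of 969 RPM in the same order, which is kept below where groups are not named. PSMA7 held 51.4% ± 7.14 and PSMA5 33.95% ± 4.76 of the alpha-ring sum (SD, n = 24), which lacks PSMA1. PSMA7 lay above PSMA5 in 22 of 24 oocytes. The next gene down was PSMA3, the alpha7 subunit, and the step from PSMA5 to it measured 2.56 ± 0.52 on the log2(RPM + 5) scale (SD, n = 24) and was seen in 24 of 24 oocytes. PSMA3, PSMA4 and PSMA6 (alpha7, alpha3 and alpha1), with means of 165, 129 and 109 RPM, had no fixed order from oocyte to oocyte: PSMA3 exceeded PSMA4 in 17 of 24 and PSMA4 exceeded PSMA6 in 16 of 24 oocytes.

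PSMA2, the alpha2 subunit, was detected in 10 of 24 oocytes, 5 of each group. It ranged from 0 to 9.07 RPM with a median of 0 RPM in siRNA injected and from 0 to 4.06 RPM with a median of 0 RPM in non-injected oocytes. Its 13 UMIs of 6767985 correspond to 1.92 RPM in the pooled oocytes, with an exact 95% Poisson interval of 1.02 to 3.28 that covers counting error only. PSMA7 had a mean 878-fold above it, so the alpha-ring transcripts, measured as 3′ tags, were not at equal levels as the subunits of the ring are. PSMA8, the testis-enriched alternative to PSMA7 in the mouse, had 33 UMIs in 14 oocytes. It ranged from 0 to 19.1 RPM with a median of 1.78 RPM in siRNA injected and from 0 to 14.7 RPM with a median of 5.73 RPM in non-injected oocytes, and so overlapped between groups and lay below PSMA7 in 24 of 24 oocytes.

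The constitutive beta ring was more even, with an 8.13-fold range between the highest and the lowest mean. PSMB1, the non-catalytic beta6 subunit, ranged from 61.1 to 369.6 RPM with a median of 146 RPM in siRNA injected and from 75.4 to 411 RPM with a median of 217 RPM in non-injected oocytes. PSMB2, the non-catalytic beta4 subunit, ranged from 79.97 to 228 RPM with a median of 192 RPM and from 83.5 to 223 RPM with a median of 157 RPM. These stood together at the top: PSMB1 exceeded PSMB2 in 13 of 24 oocytes, a log2 difference of 0.09 ± 0.84 (SD, n = 24), and PSMB2 exceeded the next gene in 24 of 24. That gene was PSMB5, which encodes the chymotrypsin-like site, with 56.9 ± 19.03 RPM over all oocytes (SD, n = 24). The trypsin-like site, encoded by PSMB7, had 47.8 ± 21.5 RPM, and the caspase-like site, encoded by PSMB6, 24.5 ± 12.1 RPM (SD, n = 24). PSMB4, the non-catalytic beta7 subunit, had 32.1 ± 13.6 RPM (SD, n = 24). Between neighbours in the order PSMB5, PSMB7, PSMB4, PSMB6 and PSMB3, the gene of higher mean lay above the next in 13 to 17 of 24 oocytes. By mean, the catalytic PSMB5 and PSMB7 lay above the structural PSMB4, and the catalytic PSMB6 lay below it. Genes farther apart in this order were not compared. PSMB6 ranged from 6.82 to 42.1 RPM with a median of 17.5 RPM in siRNA injected and from 9.403 to 51.5 RPM with a median of 27.9 RPM in non-injected oocytes. PSMB3, the beta3 subunit and the lowest of the ring, ranged from 7.13 to 59.4 RPM with a median of 27.2 RPM and from 0 to 33.98 RPM with a median of 20.1 RPM and was detected in 23 of 24 oocytes.

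The immunosubunits replace the catalytic subunits in cells exposed to interferon and in many immune cells, where they favour peptides that fit MHC class I. PSMB8, the counterpart of PSMB5, ranged from 0 to 4.94 RPM with a median of 0 RPM in siRNA injected and from 0 to 14.1 RPM with a median of 1.23 RPM in non-injected oocytes. PSMB9, the counterpart of PSMB6, ranged from 0 to 16.9 RPM with a median of 3.88 RPM and from 0 to 9.403 RPM with a median of 2.64 RPM. Both were thus present as a few UMIs, 15 in 10 oocytes for PSMB8 and 30 in 16 oocytes for PSMB9, and the groups overlapped. Within oocytes PSMB8 lay below PSMB5 by a mean log2 difference of -3.16 ± 0.80 (SD, n = 24) in 24 of 24, and its mean RPM was 26.7-fold lower. PSMB9 lay below PSMB6 in 21 of 24 oocytes, by -1.73 ± 1.09 (SD, n = 24) and 6.22-fold in mean RPM. Both differences passed a two-sided sign-flip permutation test over 6 planned pairs (p = 2e-05, adjusted p = 2.4e-05), 2e-05 being the smallest p that 100000 resamples can give.

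The same test placed PSMA8 below PSMA7, with a log2 difference of -7.37 ± 0.76 (SD, n = 24) and a 296-fold lower mean (adjusted p = 2.4e-05). In each group alone the 5 pairs that passed over all oocytes passed again. The size of the log2 differences of genes near 0 depends on the pseudocount: with 1 RPM in place of 5 they were -4.74 for PSMB8 and -8.68 for PSMA8, and with 10 RPM they were -2.44 and -6.67, with the same pairs passing.

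Of the genes that accompany the immunosubunits in antigen processing or the interferon response, 13 were listed and 10 had a row, and 4 of these passed the filter with none at an unadjusted p under 0.05. B2M, the light chain of MHC class I, ranged from 47.7 to 155 RPM with a median of 92.98 RPM in siRNA injected and from 56.96 to 116 RPM with a median of 85.4 RPM in non-injected oocytes. ISG15, a ubiquitin-like protein strongly induced by interferon, was at 0 in every oocyte. Leukocyte markers, given above, were at a median of 0.211 RPM per gene.

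Among the 6 ATPases of the base, which form the ring that unfolds substrates, means ran over a 14.1-fold range. PSMC1, or RPT2, ranged from 131 to 289 RPM with a median of 219 RPM in siRNA injected and from 119 to 245 RPM with a median of 195 RPM in non-injected oocytes. PSMC4, or RPT3, ranged from 52.5 to 145 RPM with a median of 97.5 RPM and from 58.6 to 127 RPM with a median of 109.8 RPM. PSMC1 exceeded PSMC4 in 23 of 24 oocytes and PSMC4 exceeded PSMC3 in 22 of 24, so the order at the top of the ring was clear in single oocytes. PSMC3, PSMC2 and PSMC6 followed with means of 55.3, 52.6 and 27.4 RPM. PSMC3 exceeded PSMC2 in 12 of 24 oocytes, PSMC2 exceeded PSMC6 in 19 of 24 and PSMC6 exceeded PSMC5 in 20 of 24. PSMC5, or RPT6, was the lowest. It ranged from 0 to 28.3 RPM with a median of 11.3 RPM and from 0 to 30.9 RPM with a median of 15.7 RPM and was detected in 21 of 24 oocytes. No ATPase had a mean under 10 RPM, and none was among the 5 highest transcripts.

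The 11 non-ATPase subunits covered the widest range of any class, 1603-fold. PSMD1 (ENSBTAG00000005119), or RPN2, a scaffold of the base, ranged from 986 to 1585 RPM with a median of 1186 RPM in siRNA injected and from 1060.4 to 2101 RPM with a median of 1601 RPM in non-injected oocytes. PSMD11 (ENSBTAG00000018897), or RPN6, a lid subunit that clamps the lid to the core, ranged from 415 to 1092 RPM with a median of 716 RPM and from 628 to 1149 RPM with a median of 917 RPM. PSMD3, or RPN3, a further lid subunit, had 488 ± 72.2 RPM over all oocytes (SD, n = 24). The order PSMD1, PSMD11, PSMD3, PSMD4 held at each step in 24 of 24 oocytes, and PSMD1, PSMD11 and PSMD3 held 43.4% ± 3.003, 24.2% ± 3.08 and 15.2% ± 2.38 of the non-ATPase sum (SD, n = 24). PSMD1 and PSMD2 encode related scaffold proteins that occur in equal numbers in the base, and their means were 1419 and 104 RPM. The ubiquitin receptor PSMD4, or RPN10, had 181 RPM, and PSMD14, or RPN11, the enzyme that cuts ubiquitin from the substrate, had 47.5 RPM. PSMD2, PSMD7 and PSMD12, at means of 104, 93.6 and 91.8 RPM, had no fixed order from oocyte to oocyte. PSMD2 exceeded PSMD7 in 13 of 24 and PSMD7 exceeded PSMD12 in 14 of 24.

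At the bottom of the lid stood PSMD6 with a mean of 27.5 RPM, PSMD8 with 6.66 RPM and PSMD13 with 0.885 RPM. PSMD13, or RPN9, ranged from 0 to 2.99 RPM with a median of 0 RPM in siRNA injected and from 0 to 6.002 RPM with a median of 0 RPM in non-injected oocytes. Its 6 UMIs fell in 6 oocytes and give 0.887 RPM in the pooled oocytes, with an exact 95% Poisson interval of 0.325 to 1.93. PSMD8, or RPN12, had 46 UMIs in 17 oocytes, an interval of 4.98 to 9.07 RPM. PSMD8 exceeded PSMD13 in 16 of 24 oocytes, by a log2 difference of 0.81 ± 0.83 (SD, n = 24). Their Poisson intervals did not overlap, but these cover counting error only. The variance of PSMD8 over the oocytes was 2.04 times the one expected from counting. PSMD6 exceeded PSMD8 in 24 of 24 oocytes.

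The 3 assembly chaperones with a PSMD symbol help to build the ATPase ring and leave it before the cap is complete. PSMD9, or p27, ranged from 95.5 to 217 RPM with a median of 178 RPM in siRNA injected and from 112 to 269.8 RPM with a median of 179 RPM in non-injected oocytes. PSMD5, or S5b, ranged from 13.5 to 56.7 RPM with a median of 27.96 RPM and from 0 to 48.8 RPM with a median of 28.9 RPM. PSMD10, or gankyrin, ranged from 4.53 to 31.2 RPM with a median of 15.1 RPM and from 0 to 40.7 RPM with a median of 16.1 RPM. PSMD9 therefore had a mean 10.1-fold above that of PSMD10, and it lay near PSMC1 and PSMD4, which belong to the finished cap.

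Activators dock on the core in place of the 19S cap. PSME4, or PA200, a nuclear activator linked to histone breakdown during spermatogenesis in the mouse, ranged from 19.1 to 53.6 RPM with a median of 34.2 RPM in siRNA injected and from 29.4 to 56.96 RPM with a median of 43.8 RPM in non-injected oocytes. PSME1, the alpha subunit of the interferon-inducible PA28 ring, ranged from 2.83 to 39.1 RPM with a median of 18.5 RPM and from 13.00 to 44.7 RPM with a median of 22.3 RPM. PSME2, its beta subunit, ranged from 0 to 30.9 RPM with a median of 14.9 RPM and from 4.06 to 42.05 RPM with a median of 19.2 RPM. PSME4 had the highest mean of the class, and all its levels were within the span of the lower beta-ring genes.

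PSME3, or PA28 gamma, the nuclear form of the ring, ranged from 0 to 14.1 RPM with a median of 1.23 RPM in siRNA injected and from 0 to 6.499 RPM with a median of 0 RPM in non-injected oocytes, with 16 UMIs in all. PSMF1, or PI31, an inhibitor of the core in vitro, ranged from 0 to 23.8 RPM with a median of 9.23 RPM and from 0 to 19.7 RPM with a median of 6.66 RPM, with 56 UMIs. PSME3 was thus the scarcest of the class. It lay below PSME1 in 23 of 24 oocytes by a log2 difference of -1.89 ± 0.92, and PSME4 exceeded it in 24 of 24 by 2.64 ± 0.70 (SD, n = 24), both with an adjusted p of 2.4e-05 in the sign-flip permutation test. In mean RPM these differences were 9.25-fold and 16.3-fold. PSME1 and PSME2, which assemble into 1 ring, differed by 0.33 ± 0.93 (SD, n = 24), with PSME1 higher in 14 and lower in 9 oocytes, and this difference did not pass (permutation test, adjusted p = 0.098).

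The classes stood at different levels, with the alpha ring and the non-ATPases at the top. The mean level per subunit was 476 ± 86.8 RPM for the alpha ring, 77.1 ± 22.3 RPM for the constitutive beta ring, 74.5 ± 11.6 RPM for the ATPases, 296 ± 47.0 RPM for the non-ATPases and 17.9 ± 3.84 RPM for activators and inhibitor (SD, n = 24). The alpha ring exceeded the beta ring in 24 of 24 oocytes, at a ratio of 6.98 ± 3.44, and with the median over subunits in place of the mean it was 3.72 ± 1.15, again above 1 in 24 of 24. With PSMA7 and PSMA5 left out of the alpha ring and the beta ring kept whole, the ratio was 1.40 ± 0.37 and lay above 1 in 22 of 24 oocytes. Leaving out the highest genes of the alpha ring alone lowers the ratio by construction, and the highest beta-ring genes were not left out. ATPases lay below non-ATPases in 24 of 24 oocytes at a ratio of 0.259 ± 0.071, and by medians at 0.575 ± 0.230 with 2 oocytes above 1. Between the particles the mean levels per subunit were close. The 20S core exceeded the 19S cap in 24 of 24 oocytes at a ratio of 1.204 ± 0.07 (SD, n = 24), 1.19 ± 0.07 with injection and 1.21 ± 0.08 without it (SD, n = 12). The lowest ratio in any oocyte was 1.07. Both means include the few abundant genes, and a ratio of medians was not taken for core and cap. PSMA1, which had no row by symbol, is missing from the levels of the alpha ring and the core. These ratios are descriptions and were not tested.

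Setting the siRNA injected oocytes against the non-injected ones asks which transcripts moved with injection. No proteasome transcript was called by limma with adjusted p below 0.05 and fold change above 1.2, where 16 of the 7256 genes tested, 0.221%, were called (0 to 37 genes when 1 oocyte was left out, with 0 members each time). At an unadjusted p under 0.05, 8 of the 34 tested members (23.5%) stood out, beside 12.4% of all genes tested. PSMA3, PSMD1, PSMA7, PSMD11 and PSMB6 were lower in siRNA injected oocytes, 5 of 34 beside 5.72% of all genes, and PSMA4, PSMB3 and PSMC3IP were higher, 3 of 34 beside 6.73%. The lower ones belong to the alpha ring, the beta ring and the non-ATPases. Of the higher ones, PSMA4 and PSMB3 are ring subunits, and without PSMC3IP, which is no subunit, 7 of 33 stood out. Over the 34 members 23 log2 fold changes were negative and 11 positive, with a median of -0.13 beside 0.02 over all genes tested. On the recovered UMIs, DESeq2 called PSMA3 and PSMD1, 2 of the 23 members with an adjusted p, beside 3.03% of all genes with one, and 6 of these 23 had an unadjusted p under 0.05, beside 16.0% of all such genes. edgeR called 0 of 24 members, beside 1.17% of all genes, with 6 of 24 at an unadjusted p under 0.05, beside 14.9%, and a lowest adjusted p of 0.0665.

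PSMA3 (ENSBTAG00000002808) had the smallest p of the 34. It ranged from 68.9 to 216 RPM with a median of 146 RPM in siRNA injected and from 136 to 249.6 RPM with a median of 200.2 RPM in non-injected oocytes, and 11 of 12 siRNA injected oocytes lay below the non-injected median and 5 below every non-injected oocyte. The means were 133 ± 45.8 RPM and 197 ± 43.8 RPM (SD, n = 12), a log2 fold change of -0.59 ± 0.16 (SE, limma adjusted p = 0.0888). DESeq2 gave an adjusted p of 0.0256, the alternatives other than leaving out 1 oocyte spanned 0.0256 to 0.182, and leaving out 1 oocyte at a time spanned 0.0545 to 0.164 with limma. Without siRNA injected oocytes 3 and 8, a setting chosen after seeing the data, limma called PSMA3 at -0.70 with an adjusted p of 0.0323, and it was then the single member called.

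PSMA4 (ENSBTAG00000014440), its neighbour in the order of levels, had an estimate of the opposite sign. It ranged from 119.5 to 191 RPM with a median of 144 RPM in siRNA injected and from 64.7 to 151 RPM with a median of 109.8 RPM in non-injected oocytes, so that 12 of 12 siRNA injected oocytes lay above the non-injected median and 5 above every non-injected oocyte. The log2 fold change was 0.46 ± 0.14 (SE, limma adjusted p = 0.123), and with edgeR and DESeq2 the adjusted p was 0.0962 and 0.0679. As a result the log2 difference PSMA3 minus PSMA4 within an oocyte averaged -0.22 ± 0.58 with injection and 0.83 ± 0.41 without it (SD, n = 12), and 8 of 12 siRNA injected oocytes lay below every non-injected one. This pair was chosen after its values were seen, and the difference is given with no test.

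PSMD1, PSMA7 and PSMD11, 3 of the 4 most abundant transcripts, stood at lower levels in siRNA injected oocytes and did not pass limma after adjustment. For PSMD1 the means were 1238 ± 174 RPM and 1599 ± 272 RPM (SD, n = 12), a log2 fold change of -0.36 ± 0.10 (SE, limma adjusted p = 0.113), and 12 of 12 siRNA injected oocytes lay below the non-injected median. DESeq2 gave 0.0326, within a span of 0.0326 to 0.239 over the alternatives other than leaving out 1 oocyte. For PSMA7 the means were 1262 ± 293 RPM and 1735 ± 513 RPM (SD, n = 12), a log2 fold change of -0.44 ± 0.14 (SE, limma adjusted p = 0.158), with 10 of 12 below the non-injected median. For PSMD11 the log2 fold change was -0.36 ± 0.13 (SE, limma adjusted p = 0.202), with 11 of 12 below. Without siRNA injected oocytes 3 and 8 the log2 fold changes of PSMD1, PSMA7 and PSMD11 were -0.32, -0.37 and -0.31. The groups overlapped in each of these genes.

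Among the scarcer genes the intervals were wider. PSMB6 had 19.6 ± 11.01 RPM and 29.4 ± 11.6 RPM (SD, n = 12), a log2 fold change of -0.53 with a 95% interval of -1.02 to -0.03 (limma adjusted p = 0.368). PSMB3 had 29.2 ± 14.8 RPM and 18.1 ± 11.9 RPM, a log2 fold change of 0.68 with an interval of 0.05 to 1.31 (limma adjusted p = 0.353), and 5 siRNA injected oocytes lay above every non-injected one. PSMC3IP ranged from 27.4 to 99.2 RPM with a median of 69.6 RPM in siRNA injected and from 17.7 to 73.9 RPM with a median of 36.2 RPM in non-injected oocytes, and its log2 fold change was 0.57 with an interval of 0.12 to 1.01 (limma adjusted p = 0.258), with 10 of 12 above the non-injected median. PSMA5, the third most abundant transcript, had a log2 fold change of -0.17 with an interval of -0.36 to 0.02 (limma adjusted p = 0.47), although 7 siRNA injected oocytes lay below every non-injected one. The intervals allowed a change of either sign for PSMA5, and for 26 of the 34 members in all.

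**Figure D2:**
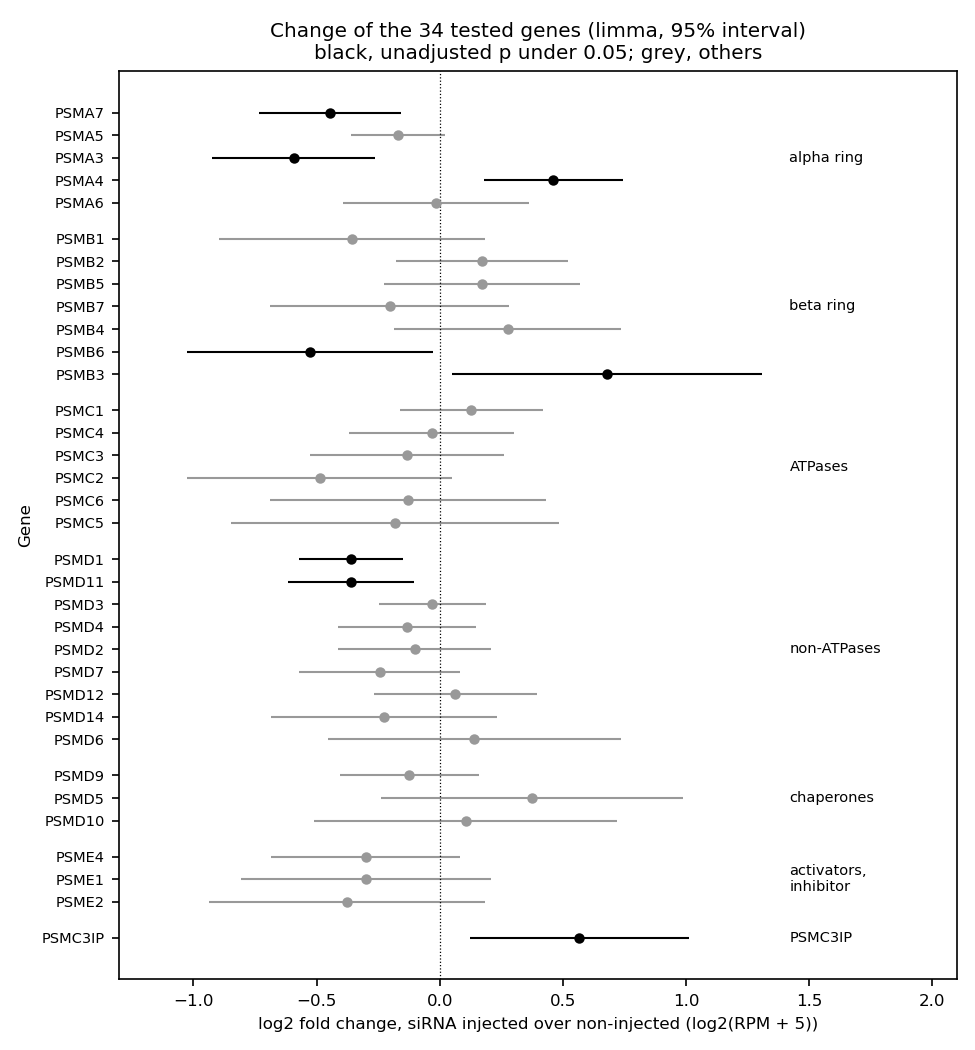
Log2 fold change, siRNA injected over non-injected, of the 34 tested genes (horizontal axis, log2(RPM + 5) scale) by class. Points are limma estimates, bars are 95% intervals, and black marks the 8 genes at an unadjusted p under 0.05. None passed after adjustment over 7256 genes, and 23 of the 34 estimates lie below 0.

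By class, the alpha ring had 1 positive and 4 negative estimates and the beta ring 4 positive and 3 negative. The ATPases had 1 positive and 5 negative with none at an unadjusted p under 0.05, and the non-ATPases 2 positive and 7 negative. Activators had 3 negative of 3, from -0.30 for PSME4 to -0.38 for PSME2, with adjusted p-values (limma) of 0.542 or more. Without siRNA injected oocytes 3 and 8 the estimates were nearer to no change, -0.22 for PSME4, -0.15 for PSME1 and -0.24 for PSME2. In level per subunit, the alpha ring was at 426 ± 58.7 RPM in siRNA injected oocytes and 526 ± 82.8 RPM in non-injected ones, and the non-ATPases were at 269 ± 32.7 and 323 ± 44.1 RPM (SD, n = 12). The beta ring, at 75.8 ± 21.0 and 78.4 ± 24.4 RPM, and the ATPases, at 73.5 ± 15.3 and 75.6 ± 6.84 RPM, differed by less than 1 SD (n = 12). All 42 transcripts together took 0.686% ± 0.057 of RPM with injection and 0.809% ± 0.089 without it, and 0.696% ± 0.054 in siRNA injected oocytes without 3 and 8 (n = 10). The sum of the 5 highest was 4583 ± 698 and 5725 ± 928 RPM and that of the other 37 was 2275 ± 238 and 2366 ± 234 RPM (SD, n = 12), so the lower total lay mainly in the abundant transcripts. These sums were not tested, since the members were chosen with earlier results known. The summed oocyte markers were at 8601 ± 574 and 9028 ± 811 RPM and the summed cumulus and granulosa markers at 186 ± 29.6 and 183 ± 23.3 RPM in the same order (SD, n = 12), and their part in these differences was not tested. The oocyte markers did not move as 1: 6 of 9 estimates were positive, with a median log2 fold change of 0.08, and KPNA7 alone, at means of 3605 and 4425 RPM, differed by more than the sum did.

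**Figure D3:**
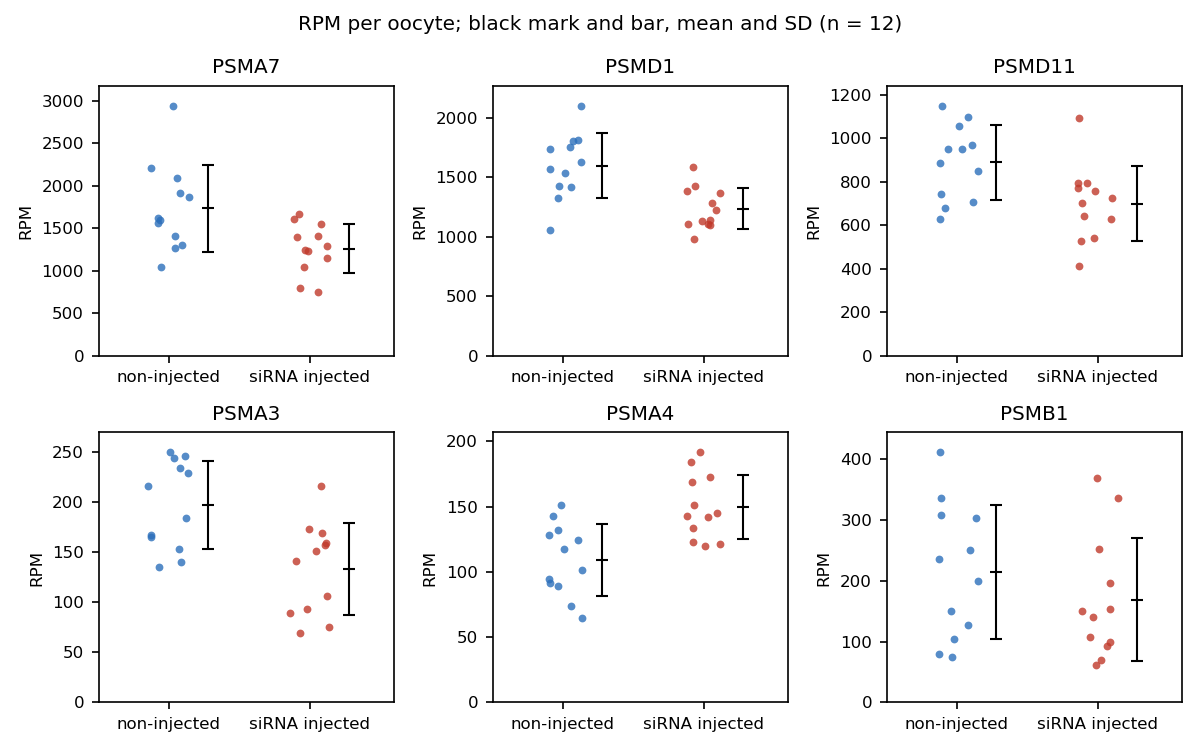
RPM per oocyte (vertical axes from 0) of the top genes PSMA7, PSMD1 and PSMD11, of the alpha-ring neighbours PSMA3 and PSMA4, and of PSMB1, which has the highest coefficient of variation among the 14 members at 100 RPM or more. Points are oocytes (n = 12 per group) and black marks and bars are means and SDs. PSMA4 is the gene whose siRNA injected values all lie above the non-injected median, and every panel shows overlap of the groups.

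Oocytes differed from each other in these transcripts by more than counting of UMIs allows for the abundant ones. The coefficient of variation over 24 oocytes was 13.2% for PSMA5, 14.8% for PSMD3, 20.4% for PSMD1 and 31.7% for PSMA7. The variance of PSMA7 was 40.9 times the one expected from counting alone over all oocytes, 18.9 times within siRNA injected and 40.3 times within non-injected oocytes. That of PSMD1 was 16.04 times over all oocytes, which includes the difference between the groups, and 6.81 and 12.2 times within them. Over the 14 members at 100 RPM or more the median ratio was 3.45, beside 3.86 over the 2067 genes at that level, so their median spread was not above that of other transcripts of this abundance. In the beta ring PSMB1 had a coefficient of variation of 55.2%, below the 60.5% of the scarcer PSMB3, but its variance was 15.9 times the one expected from counting, beside 2.35 times for PSMB3. PSME4 varied as little as counting allows, with a ratio of 0.961. Single oocytes held several of the extremes among the 34 tested members: siRNA injected oocyte 8 had the lowest value of all 5 most abundant transcripts and the highest of PSMA6, PSMC1, PSMD14 and PSMD5. Non-injected oocytes 2 and 11 held the highest value of 5 members each and non-injected oocyte 3 of 4, PSMA7 and PSMD3 among them.

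Subunits of the same particle did not vary together as a rule. The median Pearson r of log2(RPM + 5) over the 561 pairs of tested members was 0.010 across the 24 oocytes, beside 0.012 over all genes tested, and the beta ring, with 0.25 over 21 pairs, was the class with the highest median among the 4 subunit classes. Single pairs departed from this in both directions. Over the 561 pairs r ran from -0.77 to 0.84, and within the non-ATPases from -0.66 to 0.77. The pairs at these negative ends were not described further. Among the 14 members at 100 RPM or more, PSMA7, PSMD1 and PSMD11 had the highest values, and they cross the border between core, base and lid. For PSMA7 and PSMD1 r was 0.84 (Spearman 0.86, n = 24), 0.71 within siRNA injected and 0.82 within non-injected oocytes (n = 12 each), and 0.82 without the 2 oocytes farthest from the PSMA7 median (n = 22). For PSMA7 and PSMD11 r was 0.81, with 0.76 and 0.74 within the groups. For PSMD1 and PSMD11 it was 0.77, with 0.61 and 0.76 within the groups. Without siRNA injected oocytes 3 and 8 these values were 0.80, 0.77 and 0.75 (n = 22). Among the same abundant members, the next pairs each held a gene of this block. For PSMA5 and PSMD11 r was 0.65, with 0.70 and 0.28 within the groups and 0.53 without oocytes 3 and 8. For PSMD1 and PSMD4 it was 0.65, with 0.61 and 0.72 within the groups and 0.56 without them.

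PSMA3, which is close to PSMA4 and PSMA6 in level, had its highest r among the 14 abundant members with a beta-ring gene. For PSMA3 and PSMB1 r was 0.61 (Spearman 0.56, n = 24), 0.67 within siRNA injected and 0.52 within non-injected oocytes, whereas for PSMA3 and PSMA4 it was -0.31, with -0.10 and 0.29 within the groups, and for PSMA3 and PSMA6 0.04. The most negative value among the 14 abundant members was -0.52, for PSMD2 and PSMD3, and this was -0.30 without the 2 oocytes farthest from the PSMD2 median. These correlations were picked after their values were seen and are descriptions. The genes of an oocyte share its library and depth, and their RPM are shares of 1 total.

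**Figure D4:**
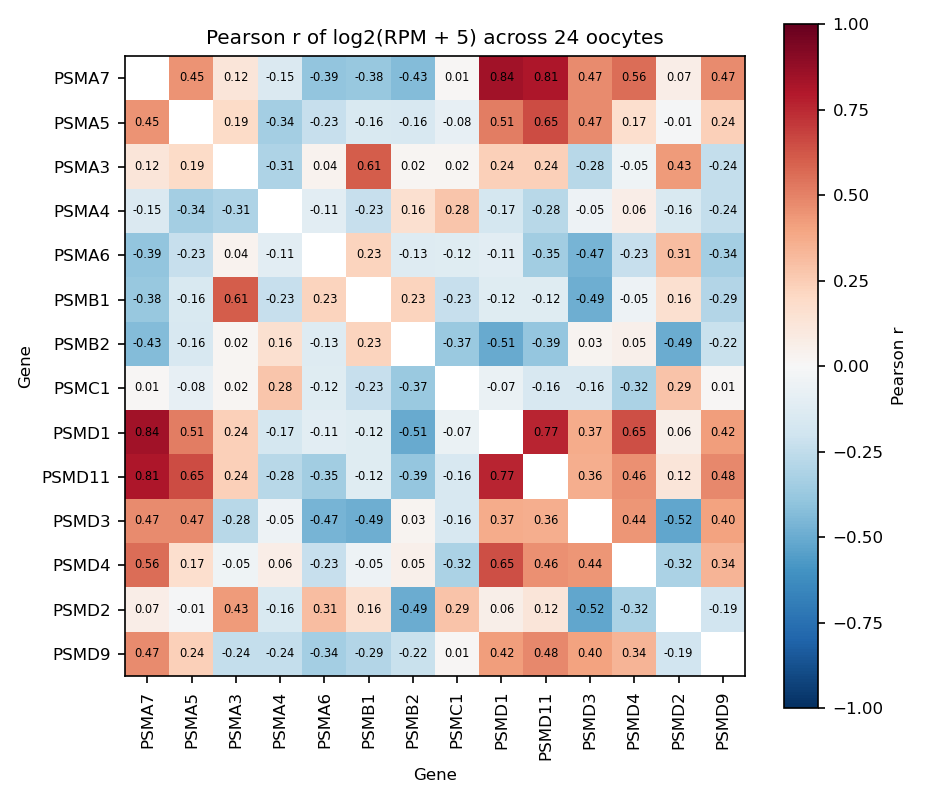
Pearson r of log2(RPM + 5) across the 24 oocytes for the 14 members with a mean of at least 100 RPM, ordered by class and level. Red cells are positive and blue cells negative. PSMA7, PSMD1 and PSMD11 form the block of highest values, 0.77 to 0.84, followed by PSMA5 with PSMD11 and PSMD1 with PSMD4, both at 0.65, and by PSMA3 with PSMB1 at 0.61.

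Of 27 genes that assemble, regulate or serve the proteasome without carrying a matching symbol, 25 had a row and 22 were tested. None was called by limma. At an unadjusted p under 0.05, 3 of the 22 were higher and 2 lower, beside 6.73% and 5.72% of all genes tested, and the median log2 fold change was -0.00093, beside 0.02 over all genes tested. The lower ones were both chaperones of core assembly. The paper on these oocytes had already listed both as down-regulated after injection, by DESeq2. PSMG1, or PAC1, which pairs with PSMG2 to line up the alpha ring, ranged from 216 to 407 RPM with a median of 312 RPM in siRNA injected and from 339.8 to 519.6 RPM with a median of 416 RPM in non-injected oocytes, and 12 of 12 siRNA injected oocytes lay below the non-injected median. Its log2 fold change was -0.45 ± 0.12 (SE, limma adjusted p = 0.0604). DESeq2, at 0.0181, and limma on genes of at least 30 RPM, at 0.0364, called it, and edgeR, at 0.0502, did not, within a span of 0.0181 to 0.128 over the alternatives other than leaving out 1 oocyte. POMP, the maturation factor on which the beta ring is built, ranged from 221 to 372 RPM with a median of 295 RPM and from 298 to 467 RPM with a median of 394 RPM, again with 12 of 12 below. Its log2 fold change was -0.36 ± 0.10 (SE, limma adjusted p = 0.116), and the adjusted p was 0.0151 with DESeq2, which called it, and 0.0596 with edgeR, within a span of 0.0151 to 0.223.

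The higher ones were USP14 and UCHL5, ubiquitin-cutting enzymes that bind the cap, and PSMG3, a further chaperone of the alpha ring. USP14 ranged from 14.3 to 88.01 RPM with a median of 36.8 RPM in siRNA injected and from 13.6 to 44.5 RPM with a median of 22.7 RPM in non-injected oocytes, and its log2 fold change was 0.50 ± 0.22 (SE, limma adjusted p = 0.345). Without siRNA injected oocytes 3 and 8 the log2 fold change of USP14 was 0.32 (limma adjusted p = 0.542). PSMG3 had a log2 fold change of 0.53 ± 0.24 (SE, limma adjusted p = 0.354). AKIRIN2, which carries proteasomes into the nucleus in human cells, was the most abundant of the list at a mean of 1912 RPM, above any subunit, with a log2 fold change of -0.18 ± 0.09 (SE, limma adjusted p = 0.415). Among the genes for ubiquitin and its activating enzymes, 4 of 6 had a row and none was called by limma. UBA1, the main activating enzyme, ranged from 327 to 577 RPM with a median of 453 RPM in siRNA injected and from 466 to 752 RPM with a median of 554 RPM in non-injected oocytes, with 11 of 12 siRNA injected oocytes below the non-injected median, and was the 1 of the 4 at an unadjusted p under 0.05, with a log2 fold change of -0.32 ± 0.11 (SE, limma adjusted p = 0.179).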

How the data were processed

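Single MII oocytes, 12 siRNA injected and 12 non-injected by the labels, were sequenced by CEL-seq2. The authors aligned reads against cDNA sequences, collapsed those sharing gene and UMI, and deposited RPM for 17071 rows. The submitters' processing notes list the genome build UMD3.1. The aligner was not given in the sources used here. A scan for the UMI capacity, which ended at 4048, allowed the collision correction to be reversed. After that, 100% of the values came out as whole UMI counts within 0.001. These gave the depth and the input for edgeR and DESeq2.

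The groups were compared with limma 3.58.1 (trend, R 4.3.3) on log2(RPM + 5) over the 7256 rows whose mean reached 10 RPM, and p-values were adjusted by Benjamini-Hochberg over all of them. Fold changes are on that scale, which understates changes of low genes. Pairs of members were compared within oocytes by two-sided sign-flip permutation in Python 3.11.15. Alternatives were edgeR 4.0.16, DESeq2 1.42.0, other pseudocounts and filters, TMM scaling, robust variance, a covariate, a replicate block and leaving out oocytes.

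Named were, per class, the 2 highest and the lowest member, all immunosubunits and activators, and the 8 smallest p-values. Other genes named were picked after their values were seen. The members and lists were chosen with earlier results of these data known. No sequences are shown.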

Additional observations from a re-analysis of the deposited data

How the results depend on the processing

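The count of all genes called, 16 of 7256, was 9 with a pseudocount of 1 RPM, 0 with no filter, 52 at a mean of at least 30 RPM, 34 with robust variance, 45 with the number of detected genes as a covariate, 50 with edgeR and 112 with DESeq2. Leaving out 1 oocyte gave 0 to 37 calls, with 0 without non-injected oocyte 8, 10 or 11, 1 to 10 without siRNA injected oocyte 1, 6, 7, 8, 9, 10 or 12 or non-injected oocyte 1, 3, 6 or 12, and 25 and 37 without siRNA injected oocyte 3 and 4. The count of members called was 2 with DESeq2 and 0 to 0 on leaving out 1 oocyte, and that of members at an unadjusted p under 0.05 was 6 to 9. Without siRNA injected oocytes 3 and 8, chosen after seeing the data, 36 genes and 1 member, PSMA3, were called. Of 686 alternative values of 20 members, 676 kept direction and call, 3 passed the threshold and 7 changed sign, in PSMC4 (-0.093 to 0.039 on leaving out 1 oocyte and 0.030 without both) and PSMD10 (-0.070 to 0.22, -0.0059 with DESeq2 and -0.00116 without both), both near 0. The median over subunits in place of the mean gave 154 RPM for the alpha ring, 45.2 for the beta ring, 54.1 for the ATPases and 96.2 for the non-ATPases. The cause of these shifts was not tested. Oocytes of the same number did not deviate together (r -0.122 to 0.171, over 0.1 in 2 of 12 pairs), and 1 siRNA injected oocyte correlated best with its own number. The replicate block gave 11 calls and 0 members. Depth limits the 8 members under 10 RPM, with 6 to 56 UMIs each.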
